A study of Mus musculus with 18 samples.

Results

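The genes described here are the TREM receptors of the array and their signalling adaptors: Trem1, Trem2, Trem3 and Treml4, with Tyrobp and Hcst. A member was taken as a probe set of the deposited value table that maps to 1 of these 6 gene symbols. Each of the 6 had a single probe set, and all 6 passed the filter on dim genes, so 6 of the 15365 genes tested, or of the 19752 genes with a symbol, are described. The study measured RNA on 1-colour mouse gene arrays, 18 in all, in myeloid cells whose BRAF kinase carried, or did not carry, the activating V600E change. Every animal bore the floxed allele written BRAFV600E(CA-flox). In the 9 samples called BRAF below, CD11c-Cre was present, so that recombination was driven by the promoter of the dendritic cell integrin CD11c. In the 9 samples called WT, from littermates, CD11c-Cre was absent. Bone marrow derived dendritic cells (BMDC), grown from the marrow of mice aged 5 weeks and sorted as live CD11c+CD11b+ cells, gave 3 BRAF and 3 WT arrays. Liver CD11b+ cells, lung CD11b+ cells and the CD103+ cells of lung, all sorted from mice aged 14 weeks, gave 2 BRAF and 2 WT arrays each. No animal or culture had been treated. The replicates are numbered in the labels but no label says whether each came from its own animal or culture. The p-values therefore rest on variation among these samples alone, and part of it may be technical.

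TREM proteins (triggering receptors expressed on myeloid cells) are surface receptors with 1 immunoglobulin-like domain and a short tail that cannot signal alone. They pair in the membrane with DAP12, the product of Tyrobp, whose tyrosine motif (ITAM) recruits the kinase Syk. DAP10, the product of Hcst, carries a different motif that recruits phosphoinositide 3-kinase. TREM1 amplifies inflammatory responses of neutrophils and monocytes, whereas TREM2 binds lipids and lipoproteins and is known for its part in the uptake of debris and in lipid handling by macrophages and microglia. Trem3 encodes another activating receptor that pairs with DAP12 in mouse, and mouse Treml4 encodes a receptor that binds dying cells.

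The 4 receptor genes lie together on chromosome 17 and the 2 adaptor genes side by side on chromosome 7 (RefSeq annotation of GRCm38.p6). Trem1 spans chr17:48232713-48246927, Trem3 begins 749 bases after its end, Treml4 a further 5351 bases on, and Trem2 ends the cluster after a gap of 70793 bases, for a total span of 119564 bases. Tyrobp and Hcst are separated by 129 bases. The sequences upstream of the annotated starts of Trem1 and Trem2, which sit at opposite ends of the cluster, are shown. They come from RefSeq (GRCm38.p6, plus strand, 5′ to 3′), at chr17:48232489-48232712 for Trem1 and chr17:48346151-48346400 for Trem2. Capitals mark matches, on either strand, to 5 motifs searched: AP-1 (TGANTCA), CRE-like (TGANGTCA), PU.1-type ETS (GAGGAA), C/EBP (TTGNNNAA) and the NF-kB site.
Trem1: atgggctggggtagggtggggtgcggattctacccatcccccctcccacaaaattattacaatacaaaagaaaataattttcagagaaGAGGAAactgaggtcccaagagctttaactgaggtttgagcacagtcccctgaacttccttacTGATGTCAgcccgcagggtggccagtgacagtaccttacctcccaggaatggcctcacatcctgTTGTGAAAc
Trem2: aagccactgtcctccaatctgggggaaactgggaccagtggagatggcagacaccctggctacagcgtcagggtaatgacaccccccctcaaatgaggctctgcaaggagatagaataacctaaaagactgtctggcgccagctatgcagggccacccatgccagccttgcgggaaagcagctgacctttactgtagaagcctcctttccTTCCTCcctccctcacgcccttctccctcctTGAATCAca
The Trem1 window held the PU.1-type, CRE-like and C/EBP letters, in that order towards the gene. Windows of the same length held these motifs in 20.8%, 6.44% and 31.3% of all 32851 promoter entries. The Trem2 window held 1 PU.1-type and 1 AP-1 match, which occurred in 23.3% and 6.75% of promoters. These matches are a description of letters and not evidence of binding. None of the matched motifs overlapped another.

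The labelled cell types were checked against defining genes by their percentile among the genes tested on each array. Itgax, which encodes CD11c, lay between the 97th and the 99th percentile on all 18 arrays. Itgae, which encodes CD103, lay between the 97th and 99th percentile on the lung CD103+ arrays and at or below the 55th elsewhere. Itgam, which encodes CD11b, lay at the 92nd percentile or above in the other populations. In lung CD103+ cells it lay at the 68th and 76th percentile on BRAF arrays, against the 41st and 43rd on WT arrays. The level of Braf, which does not show which allele is expressed, spanned 8.39 to 9.12 on the log2 intensity scale in BRAF arrays and 8.09 to 9.22 in WT arrays. A pair of arrays had a narrow spread: the interquartile range was 1.90 for BRAF BMDC 2 and 1.92 for WT liver 3, against 2.41 to 2.99 for the other arrays (log2 scale), so results that turn on these 2 arrays are given with and without them. Values below are log2 of the deposited intensity, and differences are BRAF minus WT.

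Trem1 carried the largest genotype difference among the 6 genes. Averaged over the 4 populations with equal weight, it was 2.00 ± 0.28 higher in BRAF on the log2 scale (± standard error, SE; limma, Benjamini-Hochberg adjusted p = 0.0023), a 4.0-fold difference with a 95% interval of 2.66 to 6.03. It ranked 9th by size of increase and 21st by p among the genes tested. Trem1 and Trem3 were the 2 of 6 members called in this average (adjusted p under 0.05), both higher, where 0.488% of all genes tested were called higher and 0.989% were called in either direction. The Trem1 call held in all 9 alternative settings tried and without any 1 of the 18 arrays, with differences from 1.75 to 2.25 and adjusted p up to 0.0115.

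In every population each BRAF array had more Trem1 signal than each WT array. BMDC read 10.50, 9.69 and 10.40 in BRAF, against 8.84, 8.65 and 9.19 in WT. Liver CD11b+ cells read 9.91 and 7.89 in BRAF, against 5.94 and 6.86 in WT. Lung CD11b+ cells read 10.11 and 9.80 in BRAF, against 8.99 and 7.69 in WT. The closest approach of the genotypes was in BMDC, where the lowest BRAF array stood 0.50 above the highest WT array. Lung CD103+ cells read 8.37 and 8.33 in BRAF, against 6.35 and 5.17 in WT. The value of 5.17 was the only one of any member below its array's 30th percentile (5.69), near the floor of the array. Complete separation in all 4 populations with BRAF above occurred for 27 of 15365 genes tested (0.176%), Trem1 among them. In bulk RNA, more cells that carry a transcript and more of it in each cell cannot be told apart.

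Within single populations the Trem1 difference did not pass the test. It was 1.30 ± 0.47 in BMDC (limma adjusted p = 0.556) and 2.50 ± 0.58 in liver CD11b+ cells (0.0981). The lung values were 1.61 ± 0.58 for CD11b+ cells (0.449) and 2.59 ± 0.58 for CD103+ cells (0.145). Of the 6 members, 0 were called in BMDC, where 0.521% of all genes were, and 0 in liver (0.215%). Likewise 0 were called in the CD11b+ cells of lung (0.338%) and 0 in its CD103+ cells (0.0846%). At an unadjusted p under 0.05 the members numbered 2, 3, 2 and 3 in the same order, where 6.65%, 14.1%, 6.71% and 4.26% of all genes did so. The BRAF liver arrays were furthest apart: without replicate 3 the liver difference became 3.51 and was called (adjusted p = 0.0344), and without replicate 2 it became 1.49. The difference in lung CD11b+ cells became 0.96 without WT replicate 3. In BMDC, limma's array weights, which gave BRAF replicate 2 a weight of 0.109, moved the difference to 1.68 with an adjusted p of 0.000249.

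**Figure D1:**
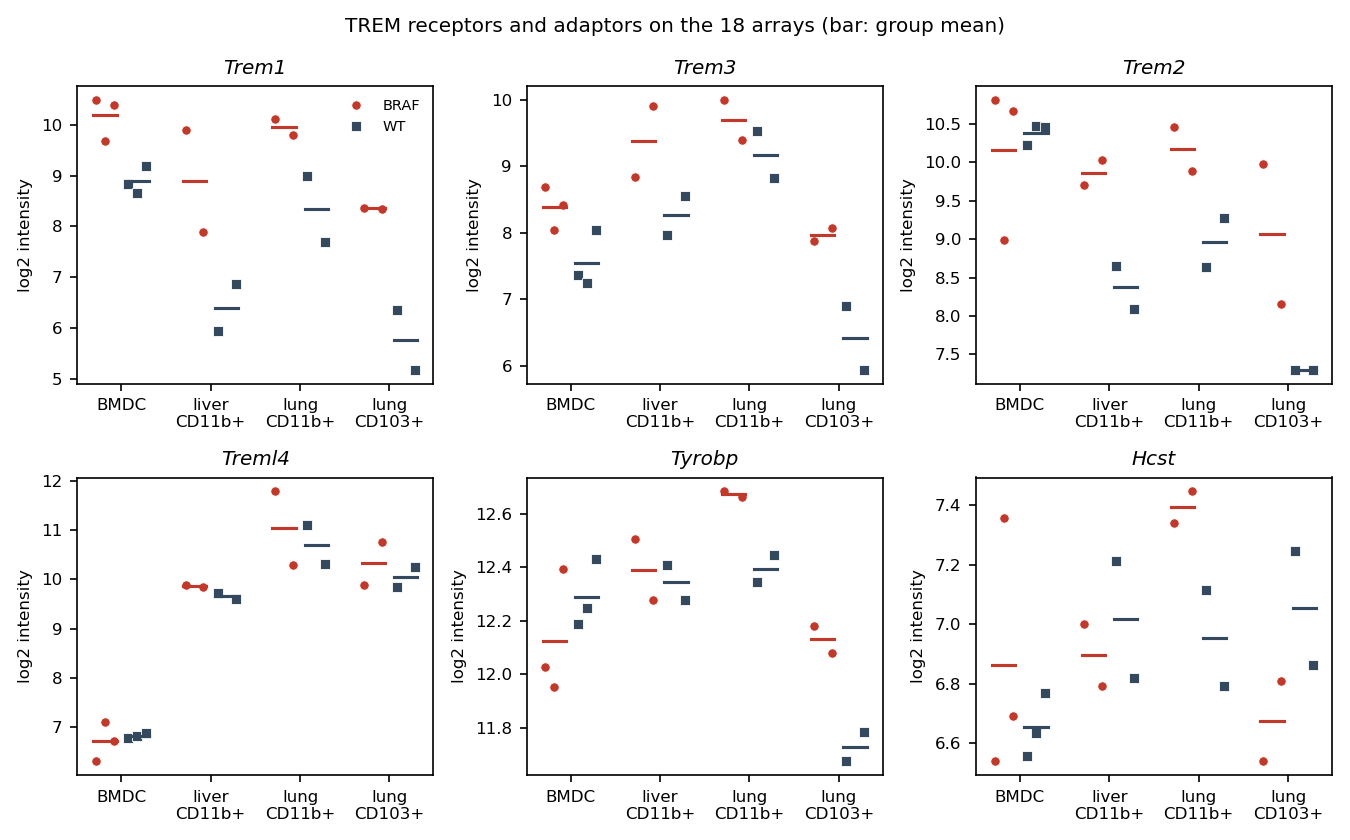
Log2 intensity (vertical axis) of each of the 6 genes on the 18 arrays, by population along the horizontal axis, with BRAF arrays as red circles left of WT arrays as dark squares and the group mean as a bar; each panel has its own vertical scale. Trem1 shows BRAF above WT in all 4 populations, while the BRAF and WT points of Treml4 overlap in 3 of the 4.

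Trem3, the neighbour of Trem1, was 1.01 ± 0.20 higher in BRAF in the average over populations (limma adjusted p = 0.0278), a 2.01-fold difference with an interval of 1.49 to 2.70. BMDC read 8.69, 8.05 and 8.41 in BRAF, against 7.36, 7.24 and 8.05 in WT, so the genotypes touched at 8.05 but did not cross. Lung CD103+ cells read 7.88 and 8.07 in BRAF, against 6.89 and 5.94 in WT. These 2 populations, like liver, kept BRAF above WT. Liver CD11b+ cells read 8.85 and 9.91 in BRAF, against 7.98 and 8.56 in WT. Lung CD11b+ cells read 10.01 and 9.39 in BRAF, against 9.53 and 8.82 in WT, and were the one population in which the genotypes overlapped. The Trem3 differences by population were 0.84 ± 0.34 in BMDC, 1.11 ± 0.42 in liver, and 0.53 ± 0.42 and 1.56 ± 0.42 in the CD11b+ and CD103+ cells of lung. The liver value became 0.58 without BRAF replicate 3, and the lung CD11b+ value ran from 0.17 to 0.88 without 1 array of that population. None was called, although array weights gave 1.24 with a call in BMDC (adjusted p = 0.000478). The call in the average held in all 9 alternative settings and was lost on leaving out any of 8 arrays: WT BMDC 1 or 2, WT liver 1, WT lung CD11b+ 3, WT lung CD103+ 3, BRAF BMDC 1, BRAF lung CD11b+ 1 or BRAF lung CD103+ 1. The difference without 1 array ran from 0.88 to 1.14, with adjusted p up to 0.0777.

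Trem2 was of similar size in the average, 1.06 ± 0.27 (interval 0.49 to 1.64), but was not called (limma adjusted p = 0.0846). In liver CD11b+ cells Trem2 read 9.71 and 10.03 in BRAF, against 8.65 and 8.10 in WT, a difference of 1.5 ± 0.56. In lung CD11b+ cells it read 10.46 and 9.89 in BRAF, against 8.64 and 9.28 in WT, a difference of 1.22 ± 0.56. BRAF stood above WT without overlap in both. In lung CD103+ cells it read 9.98 and 8.16 in BRAF, against 7.30 and 7.30 in WT, a difference of 1.77 ± 0.56 that became 0.86 without BRAF replicate 1 and 2.68 without BRAF replicate 2. In BMDC it read 10.82, 8.99 and 10.67 in BRAF, against 10.23, 10.48 and 10.46 in WT, a difference of -0.23 ± 0.46. Here the 2 other BRAF arrays lay above all WT arrays and replicate 2, the array of narrow spread, lay below them. The BMDC difference was 0.36 without that array and the other narrow one. The averaged difference was called without BRAF BMDC 2 (1.21, adjusted p = 0.0118) and without BRAF lung CD103+ 2 (1.29, adjusted p = 0.0154), and under 4 of 9 alternative settings: quantile normalization, array weights, a block for replicate number and the fit without both narrow arrays.

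Across the separate populations, members with all BRAF arrays above all WT arrays numbered 2 in BMDC, where 6.99% of all genes tested lay so, and 4 in liver (22.7%). They numbered 4 in the CD11b+ cells of lung (21.6%) and 4 in its CD103+ cells (9.16%). The reverse, all BRAF arrays below all WT arrays, held for 0 members in BMDC (9.08% of all genes), liver (15.8%) and lung CD11b+ cells (24.8%). It held for 1 member, Hcst, in lung CD103+ cells (19.3%).

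Treml4 separated the genotypes in liver alone, and narrowly. In BMDC it read 6.31, 7.12 and 6.73 in BRAF, against 6.80, 6.82 and 6.89 in WT. In lung CD11b+ cells it read 11.79 and 10.28 in BRAF, against 11.10 and 10.31 in WT, so the 2 BRAF arrays bracketed the WT pair. Lung CD103+ cells read 9.90 and 10.75 in BRAF, against 9.85 and 10.25 in WT. In liver it read 9.89 and 9.85 in BRAF, against 9.73 and 9.60 in WT, which did not overlap but lay only 0.13 apart at the nearest. The average difference was 0.17 ± 0.20, with an interval of -0.25 to 0.60 that includes 0 and does not reach the size seen for Trem1 (limma adjusted p = 0.962).

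Tyrobp, the gene of the adaptor DAP12, had no called genotype difference. It read 12.03, 11.95 and 12.39 in BRAF BMDC, against 12.19, 12.25 and 12.43 in WT. In liver it read 12.51 and 12.28 in BRAF, against 12.41 and 12.28 in WT. Both populations overlapped. Lung CD11b+ cells read 12.69 and 12.66 in BRAF, against 12.34 and 12.44 in WT. Lung CD103+ cells read 12.18 and 12.08 in BRAF, against 11.67 and 11.78 in WT. In the lung populations BRAF was above WT without overlap, by small amounts: 0.28 ± 0.20 in CD11b+ and 0.40 ± 0.20 in CD103+ cells, neither called. The average difference was 0.14 ± 0.09, with an interval of -0.06 to 0.34 (limma adjusted p = 0.794). Tyrobp lay at the 98.9th percentile of the genes tested or above on all 18 arrays. Arrays can compress differences at high signal, and whether they did so for Tyrobp was not tested.

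Hcst, which encodes DAP10, lay between the 32.0th and 56.5th percentile of the genes tested. BMDC read 6.54, 7.36 and 6.69 in BRAF, against 6.56, 6.63 and 6.77 in WT. Liver read 7.0 and 6.79 in BRAF, against 7.21 and 6.82 in WT. Both overlapped. Lung CD11b+ cells read 7.34 and 7.45 in BRAF, against 7.12 and 6.79 in WT, with BRAF above. Lung CD103+ cells read 6.54 and 6.81 in BRAF, against 7.24 and 6.86 in WT, with BRAF below. The average difference was 0.04 ± 0.13, with an interval of -0.23 to 0.31 (limma adjusted p = 0.999).

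Whether the genotype difference itself varied between populations was tested with limma's moderated F test, and 0 of 6 members were called, where 0.124% of all genes were. An unadjusted p under 0.05 was also reached by 0 of the 6, where 9.1% of all genes reached it. The smallest p was that of Trem2 (unadjusted p = 0.0504, adjusted p = 0.549), and the adjusted p of Trem1 was 0.705 and that of Trem3 0.739. In pairwise form, the Trem2 difference was 2.00 ± 0.73 larger in lung CD103+ cells than in BMDC (adjusted p = 0.755) and 1.72 ± 0.73 larger in liver than in BMDC (0.253). For Trem1 the widest pairwise gap was 1.29 ± 0.75, between lung CD103+ cells and BMDC, with an interval of -0.30 to 2.89. With 2 arrays a group these intervals are wide, and they do not show that the populations responded alike.

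**Figure D2:**
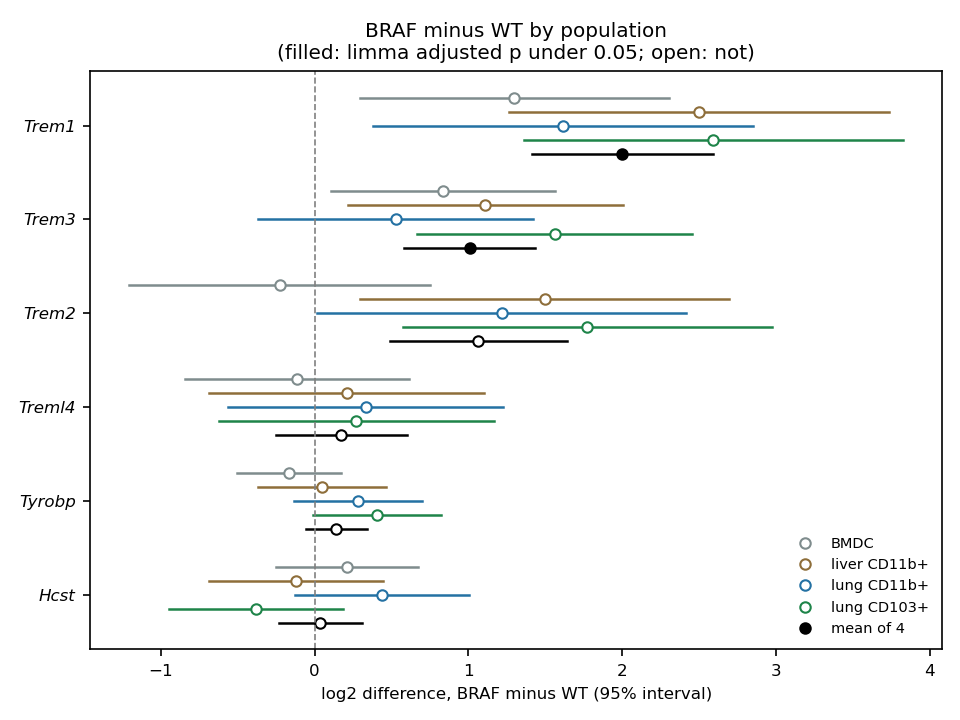
BRAF minus WT log2 differences (horizontal axis) for the 6 genes (vertical axis), with 95% intervals from limma, for each of the 4 populations and for their mean in black; filled points have an adjusted p under 0.05. Only the means of Trem1 (2.00) and Trem3 (1.01) are filled, and the intervals of Treml4, Tyrobp and Hcst cross 0.

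The order of the populations was not the same for each receptor. These comparisons average the genotypes with equal weight. Treml4 averaged 10.87 in lung CD11b+, 10.19 in lung CD103+, 9.77 in liver CD11b+ cells and 6.78 in BMDC. It was thus 4.09 ± 0.27 higher in lung CD11b+ cells than in BMDC (limma adjusted p = 2.08e-07), 3.41 ± 0.27 higher in lung CD103+ cells (4.12e-07) and 2.99 ± 0.27 higher in liver cells (4.85e-06). The 3 organ populations did not differ from each other past the threshold, although without BRAF lung CD11b+ 2 the CD11b+ cells of lung stood apart from CD103+ cells (-1.06 for CD103+ minus CD11b+, 0.0258) and from liver cells (-1.48 for liver minus lung, 0.0121), the second of these also without BRAF BMDC 2 (0.0366). BMDC were cultured and came from younger mice, so culture, age and organ cannot be told apart.

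For Trem1 BMDC came first instead of last, with averages of 9.55 in BMDC, 9.15 in lung CD11b+, 7.65 in liver CD11b+ and 7.06 in lung CD103+ cells. Neighbours in this order did not differ past the threshold, the adjusted p being 0.603, 0.072 and 0.384 down the order. Lung CD103+ cells were lower than lung CD11b+ cells (log2 difference -2.09 ± 0.41, limma adjusted p = 0.00492) and than BMDC (-2.49 ± 0.37, 0.000224). Liver cells were lower than BMDC (-1.90 ± 0.37, 0.00345). The liver to lung CD11b+ difference of -1.5 ± 0.41 was called without BRAF BMDC 2 (adjusted p = 0.0408) or without BRAF liver 2 (-2.0, 0.00876).

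Trem2 followed the same order, averaging 10.28 in BMDC, 9.57 in lung CD11b+, 9.12 in liver and 8.18 in lung CD103+ cells. Lung CD103+ cells were lower than BMDC (-2.09 ± 0.36, limma adjusted p = 0.000775). Liver cells were also lower than BMDC (-1.16 ± 0.36, 0.0476), a call that held in 7 of 11 alternative settings and on leaving out only 3 of 18 arrays in turn. Between the lung populations, CD103+ minus CD11b+ was -1.39 ± 0.40 and not called (0.0574). It was called in 5 of 12 alternative settings, among them the lung replicate numbers as a block (0.0108), although those numbers are not known to pair arrays. It was also called without BRAF BMDC 1 or 2, or BRAF lung CD103+ 1.

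Trem3 was highest in lung CD11b+ cells, at 9.44, followed by 8.82 in liver, 7.97 in BMDC and 7.20 in lung CD103+ cells. Lung CD103+ cells were lower than lung CD11b+ cells (-2.24 ± 0.30, limma adjusted p = 0.000225). Liver cells were 1.63 ± 0.30 above lung CD103+ cells (0.00224). Lung CD11b+ cells were 1.47 ± 0.27 above BMDC (0.00208), and these 3 calls held in every setting and without any 1 array. The liver excess over BMDC, 0.85 ± 0.27 (0.0492), held in 5 of 11 settings and 5 of 18 leave-outs. Lung CD103+ cells differed from BMDC by -0.77 ± 0.27 (0.0648), which was called in 4 of 11 settings and 4 of 18 leave-outs.

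The adaptors varied least. Tyrobp averaged 12.54 in lung CD11b+, 12.37 in liver, 12.21 in BMDC and 11.93 in lung CD103+ cells, and only the step between the lung populations was called (CD103+ minus CD11b+, -0.61 ± 0.14, limma adjusted p = 0.0144). That call was lost without WT lung CD11b+ 3, WT lung CD103+ 1, BRAF lung CD11b+ 1 or BRAF lung CD103+ 2 (adjusted p up to 0.0701), and with WT arrays alone (-0.67, 0.0827). For Tyrobp, liver minus lung CD103+ (0.44, limma adjusted p = 0.0537) was called in 2 of 11 alternative settings. Lung CD11b+ minus BMDC and lung CD103+ minus BMDC were each called in 1 of 11. Hcst averaged 7.17 in lung CD11b+, 6.96 in liver, 6.86 in lung CD103+ cells and 6.76 in BMDC, with no pair called, although lung CD11b+ minus BMDC (0.42 ± 0.17, adjusted p = 0.147) was called with array weights and without BRAF BMDC 2. Counted over the members, 3 of 6 differed between lung CD103+ and lung CD11b+ cells, where 5.64% of all genes did. The number was 0 between liver and lung CD11b+ cells (2.12%) and 1 between liver and lung CD103+ cells (11.5%). Against BMDC it was 2 for lung CD11b+ (11.7%), 3 for lung CD103+ (17.3%) and 4 for liver cells (13.5%). Between liver and lung CD11b+ cells 2 members had an unadjusted p under 0.05, where 20.4% of all genes did.

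Genes with the most similar pattern were sought by the root mean square (RMS) distance between centred group means, over the 8 groups. Only receptors whose group means spanned at least 1 log2 unit were used, which left out Tyrobp (span 0.95) and Hcst (0.74). Closest to Trem1, whose means spanned 4.43, were Clec4d, a C-type lectin receptor (RMS 0.46), Gda, guanine deaminase (0.51), and the chemokine receptor gene Ccr1 (0.63). Trem2, spanning 3.09, was matched most closely by Frrs1, a ferric reductase gene (0.14), Idh1, cytosolic isocitrate dehydrogenase (0.24), and the transcription factor gene Mitf (0.26). Trem3 (span 3.28) lay nearest Xdh, xanthine dehydrogenase (0.28), Il17ra, an interleukin 17 receptor chain (0.36), and Tgm2, a transglutaminase (0.36). Treml4 (span 4.32) lay nearest the immediate early genes Fos (0.41) and Dusp1 (0.42) and Adgre5, which encodes the adhesion receptor CD97 (0.41). These are descriptions over 8 means that share arrays.

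Other genes of the pathway were taken as 5 lists. The first holds the kinases, adaptors and phosphatases downstream of ITAM receptors, and 0 of its 26 genes tested were called in any population or in the average. An unadjusted p under 0.05 was reached by 2, 3, 2 and 1 of them in the 4 populations and by 4 in the average, where 9.37% of all genes reached it. In BMDC 5 and in lung CD11b+ cells 4 of the 26 differences were positive, against 18 in liver. Its median average difference was -0.10, against -0.01 for all genes. The smallest p in the average was that of Prkcd, protein kinase C delta, at -0.77 ± 0.25 (limma adjusted p = 0.203). The second list holds other receptors that use DAP12 or DAP10, and related chains, with 18 of its 25 genes tested. Clec5a, a DAP12-paired lectin receptor of myeloid cells, was the 1 called, at 0.99 ± 0.18 higher in BRAF (adjusted p = 0.0144). The call held in all 9 settings and all 18 leave-outs.

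Clec5a separated the genotypes in all 4 populations. BMDC read 10.61, 9.99 and 10.75 in BRAF, against 9.57, 9.54 and 9.78 in WT. Liver read 9.43 and 9.68 in BRAF, against 8.50 and 8.12 in WT. Lung CD11b+ cells read 9.49 and 10.26 in BRAF, against 8.33 and 9.47 in WT, the narrowest margin. Lung CD103+ cells read 9.07 and 9.70 in BRAF, against 8.51 and 8.43 in WT. Within the same list, the receptor genes Cd200r4 in lung CD11b+ cells (2.86 ± 0.76) and Pilrb1 in lung CD103+ cells (2.21 ± 0.51) had large differences that were not called (adjusted p = 0.178 and 0.168). The neighbouring TREM-like genes Treml1 and Treml2 had average differences of 0.12 ± 0.13 and 0.53 ± 0.18, neither called. Fcer1g, which encodes the Fc receptor gamma chain, another ITAM adaptor, had 0.20 ± 0.12.

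Genes for proposed TREM ligands and for the enzymes that shed the receptors numbered 15 tested, with 0 called in any population and 3 at an unadjusted p under 0.05 in the average. The alarmin gene S100a8 was at -0.68 ± 0.29 in BMDC and 1.14 ± 0.36 in liver (adjusted p = 0.711 and 0.211). Their median average difference was 0.10. Lgals3, which encodes galectin 3, a proposed TREM2 ligand, had the smallest p (0.48 ± 0.13, limma adjusted p = 0.102). Of 23 genes tested of the lysosomal and lipid programme linked to TREM2 in microglia, Ctsd, the protease cathepsin D, was the 1 called in the average, 1.44 ± 0.28 higher (adjusted p = 0.0261). It was lost on leaving out any of 6 arrays: WT BMDC 1 or 3, WT liver 3, WT lung CD11b+ 1, BRAF liver 2 or BRAF lung CD103+ 1 (adjusted p up to 0.0866). Lung CD11b+ cells read 11.79 and 12.13 for Ctsd in BRAF, against 9.89 and 10.45 in WT, and lung CD103+ cells 11.82 and 10.86 in BRAF, against 9.50 and 7.38 in WT. BMDC overlapped, with 12.67, 11.45 and 13.06 in BRAF, against 12.48, 12.66 and 12.25 in WT. In lung CD103+ cells 21 of the 23 differences were positive, with a median of 0.83 against -0.08 for all genes, and 0 were called. An unadjusted p under 0.05 was reached by 8 of the 23, against 4.26% of all genes. The median became 0.40 without BRAF lung CD103+ 1. Clec7a, the beta-glucan receptor Dectin-1, came nearest there (2.32 ± 0.43, adjusted p = 0.0575). In BMDC the median was -0.11 and Ch25h, cholesterol 25-hydroxylase, was the 1 called (3.19 ± 0.64, 0.0337). That call was lost without any WT BMDC array or without BRAF BMDC 1 or 3, and also with median centring (0.0617), the replicate block (0.0557) and only the groups compared (0.0579).

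The last list holds cytokine and activation genes that TREM1 signalling is known to amplify, 19 tested. In BMDC 16 of 19 differences were positive, with a median of 0.67 against 0.003 for all genes, and 3 were called, the monocyte chemokine genes Ccl7 and Ccl2 and the neutrophil chemokine gene Cxcl3 (5.04 ± 0.36, 3.98 ± 0.46 and 1.61 ± 0.25; limma adjusted p up to 0.00822). Cxcl3 was lost without WT BMDC 1 or 2 and with only the groups compared (0.0503). In lung CD103+ cells 15 of 19 differences were positive, with a median of 0.54 against -0.08 for all genes, 0 called and 7 at an unadjusted p under 0.05. Without 1 lung CD103+ array that median ran from 0.13 (without BRAF 1) to 1.26 (without BRAF 2), and it was 0.30 without WT 3 and 1.08 without WT 1. In liver and lung CD11b+ cells the list medians were -0.33 and -0.20 and 0 were called, with 0 and 3 genes at an unadjusted p under 0.05. Il1a, the interleukin 1 alpha gene, was at 2.83 ± 0.76 in lung CD11b+ cells (0.179), and Il12b, an interleukin 12 chain gene, at -1.33 ± 0.35 in lung CD103+ cells (0.253). In the average, Ccl7 (1.45 ± 0.21, adjusted p = 0.00409) and Ccl2 (1.42 ± 0.27, 0.0198) were called, the second of these being lost without WT liver 1 or either WT lung CD11b+ array. Both averages draw mostly on BMDC, where the differences were 5.04 and 3.98. Neither gene was called in liver or in either lung population.

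**Figure D3:**
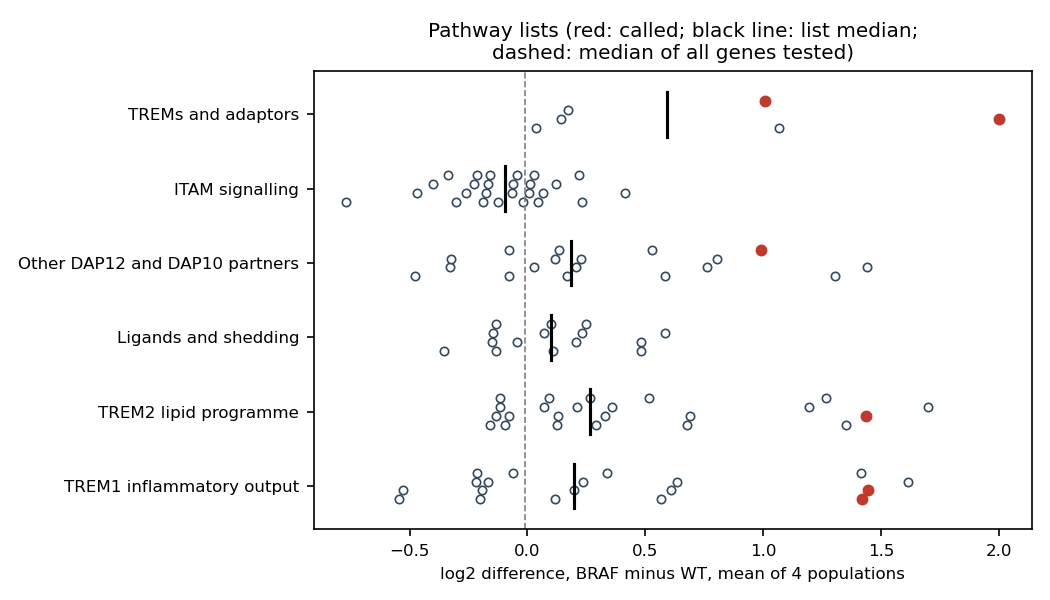
Average BRAF minus WT log2 difference (horizontal axis) of each gene tested in 6 lists (vertical axis), with called genes in red, the list median as a black line and the median of all genes as a dashed line. The called genes are Trem1 and Trem3, Clec5a, Ctsd, and Ccl7 with Ccl2, and the ITAM list lies around 0 with a median of -0.10. The averages of Ccl7 and Ccl2 draw mostly on BMDC, the only single population in which they were called.

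Because TREM genes mark several myeloid cells, markers of other cells were read beside them. The mean log2 intensity of 12 neutrophil genes was 6.77 and 7.70 in BRAF liver, against 6.32 and 6.59 in WT liver. The higher of these BRAF arrays was replicate 3, the one with the lower Trem1. By the number of list genes above the array's 30th percentile the order was reversed, with 11 of 12 in replicate 2 and 8 of 12 in replicate 3. In lung CD11b+ cells the list read 7.05 and 6.64 in BRAF, against 6.42 and 6.32 in WT, and in lung CD103+ cells 6.39 and 5.95 in BRAF, against 5.95 and 5.54 in WT. In BMDC it read 6.53 to 6.80 in BRAF and 6.59 to 6.72 in WT. Among its genes Mmp8 was called in the average (2.27 ± 0.36 higher, limma adjusted p = 0.00789) and Ngp was called lower in BRAF BMDC (-1.59 ± 0.27, 0.012). Ly6g, which defines neutrophils, lay at or below the 27th percentile on every array. Other genes of the list reached higher, S100a9 up to the 56th percentile and Csf3r up to the 86th, the latter in WT liver and WT lung CD11b+ arrays. In lung CD11b+ cells Csf3r read 7.77 and 8.18 in BRAF, against 8.51 and 9.35 in WT, opposite to the list mean. In lung CD103+ cells it was higher in BRAF, at 6.69 and 6.86 against 6.06 and 6.39. Its genotypes overlapped in liver and in BMDC.

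Monocyte and macrophage markers differed most in lung CD103+ cells. All 9 macrophage genes tested had positive differences there, with a median of 2.52. Of these 9, 0 were called and 9 had an unadjusted p under 0.05, against 4.26% of all genes. The list mean was 10.13 and 8.32 in BRAF, against 7.68 and 6.11 in WT. BRAF replicate 1, with the higher macrophage mean, also had the higher Trem2 (9.98 against 8.16 in BRAF replicate 2), whereas Trem1 was level between them (8.37 and 8.33). The classical monocyte list of 6 genes read 9.71 and 8.87 in BRAF, against 8.19 and 6.55 in WT. In liver it read 9.64 and 10.18 in BRAF, against 9.39 and 8.44 in WT. In lung CD11b+ cells it read 9.58 and 10.18 in BRAF, against 9.28 and 9.06 in WT. The macrophage list overlapped there, with 11.08 and 10.25 in BRAF, against 10.02 and 10.56 in WT. In BMDC neither list was raised, the medians being -0.43 for macrophage and -0.17 for classical monocyte genes. In the average, the macrophage list had 1 gene called higher, Msr1, a scavenger receptor gene (1.39 ± 0.25, limma adjusted p = 0.0146), and the classical monocyte list 1, the fibronectin gene Fn1 (1.69 ± 0.35, 0.029). The part of neutrophils, monocytes and macrophages in the TREM differences of any population was not tested. Of the other 10 marker lists, the shifts furthest from 0 were those of Kupffer cell genes in lung CD103+ cells (1.58) and B cell genes in lung CD11b+ cells (-1.26). Neither had a gene called, and 2 and 1 had an unadjusted p under 0.05. Conventional dendritic cell genes had a median of -1.05 in lung CD11b+ cells, with 0 called and 5 of 7 at an unadjusted p under 0.05. In the average 0 of those 7 differences were positive and Kit, a growth factor receptor gene, was called lower (-0.82 ± 0.17, 0.029). Lung epithelium genes had a median of 0.80 in lung CD103+ cells, with 0 called and 5 of 7 at an unadjusted p under 0.05, and Epcam, an epithelial adhesion gene, was called lower in the average (-0.996 ± 0.22, 0.0454). Hepatocyte genes had a median of 1.07 in lung CD103+ cells, with 7 of 7 positive, 0 called and 0 at an unadjusted p under 0.05. Alb, the albumin gene, read 10.98 and 6.57 in BRAF there, against 7.80 and 5.94 in WT. The value of 10.98 was that of BRAF replicate 1, which also had the higher macrophage mean and Trem2. The part of such transcripts in these values was not tested. Eno3, in the non-classical monocyte list, was called lower in lung CD11b+ cells (-1.36 ± 0.23, 0.0215).

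**Figure D4:**
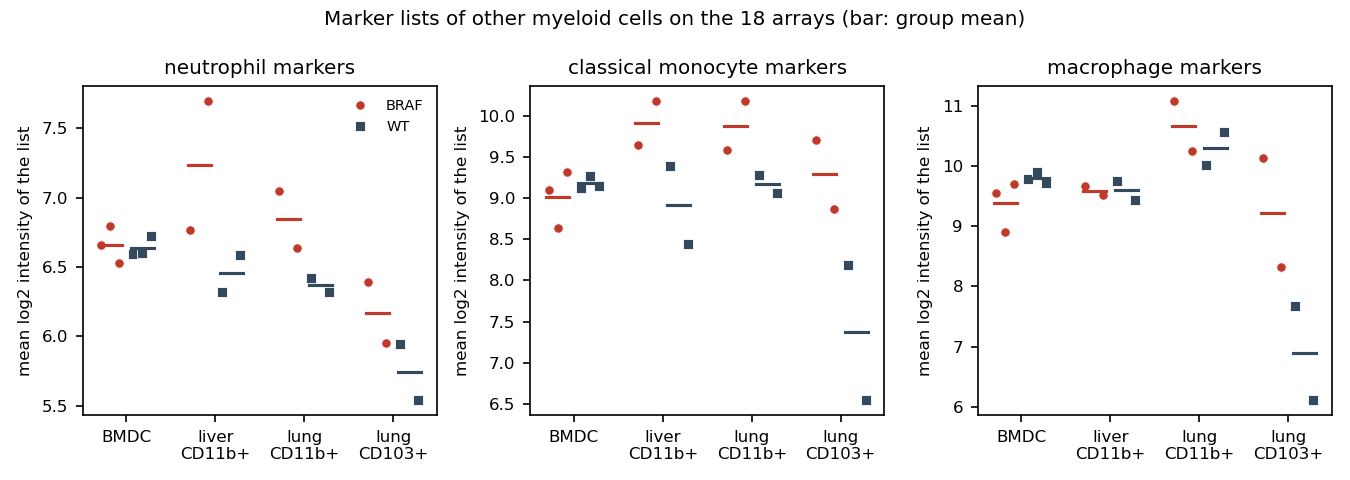
Mean log2 intensity (vertical axis) of 3 marker lists on the 18 arrays by population, with BRAF arrays as red circles left of WT arrays as dark squares and the group mean as a bar. Macrophage and monocyte markers stand higher in BRAF than WT lung CD103+ cells, while in BMDC the neutrophil and monocyte points of the genotypes overlap and the macrophage points of BRAF lie at or below those of WT.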

How the data were processed

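RNA of 18 mouse samples was read on 1-colour gene arrays. The deposited values are intensity on a linear scale (array medians 93.7 to 113.2); the normalization the authors applied is not given in the material at hand, and no detection calls were used. Everything below was computed here. Log2 of the deposited values was taken with no added constant. Of 24922 probe sets, 21425 had 1 symbol, 1399 several and 2098 none in the gene table used; 921 genes had several probe sets, of which that with the highest mean was kept. A gene was tested if 2 or more arrays held it above their own 30th percentile. A mean per genotype and population was fitted over all arrays with limma 3.58.1 in R 4.3.3 (10 residual degrees of freedom, prior 4.83), and p-values were Benjamini-Hochberg adjusted over the 15365 genes tested; a gene under 0.05 was called. The fit was tested on simulated data in which each gene had the same spread on every array, so arrays of unequal quality were not covered. Errors of differences are SE. The number of arrays limits the precision.

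The members and gene lists were chosen with earlier results of these data known. Named genes were the 6 members, Braf and the 3 genes nearest to each receptor by pattern. From the pathway lists, all genes that were called were named. Where none was called, the gene with the smallest p was named for some comparisons and left out for others. Treml1, Treml2, Fcer1g, Csf3r, S100a9, Alb and the called markers (Mmp8, Ngp, Msr1, Fn1, Kit, Epcam and Eno3) were added after their values were seen. Deviations from the group means were correlated across genes between same-numbered arrays. Lung CD103+ and CD11b+ arrays had r = 0.159 in WT and 0.220 in BRAF. BMDC and liver arrays, from mice of different ages, had 0.249 and 0.333 in WT and 0.353 and 0.363 in BRAF. BRAF and WT BMDC arrays had 0.469, -0.231 and -0.399. These values therefore do not show which arrays are paired, and the block for number in lung is an alternative only. Alternatives were quantile normalization, median centring, no filter, a 50th percentile filter, array weights, eBayes with trend and robust options, averaged probe sets, fits of the compared groups, WT arrays alone, the block, and leaving out arrays. RefSeq tables (GRCm38.p6) gave positions and promoters; 4 of 6 members had a promoter entry. Tables and plots were made with pandas 2.3.3, numpy 2.4.6 and matplotlib 3.10.9 under Python 3.11.15.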

Additional observations from a re-analysis of the deposited data

Results flagged for a closer look

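Hcst was the only member whose genotypes stood apart in opposite directions in 2 populations: every BRAF array was above every WT array in lung CD11b+ cells and every BRAF array was below every WT array in lung CD103+ cells. The difference of the genotype effects, lung CD103+ minus lung CD11b+, was -0.82 ± 0.37 on the log2 scale. It had an unadjusted p of 0.0451 and an adjusted p of 1 with limma, so it did not pass the test, and 0 of 15365 genes were called in this contrast (372 had an unadjusted p under 0.05).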

How the results depend on the processing

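Members called in BMDC were 2 with array weights. Between liver and lung CD103+ cells they were 2 with quantile normalization and without both narrow arrays. Against BMDC they were 5 with array weights and 4 without both narrow arrays for lung CD11b+ cells, 5 without both narrow arrays for lung CD103+ cells, and 2 with median centring, no filter or only the groups compared for liver.

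Genes called in BMDC were 1656 with array weights and 44 with only the groups compared; in liver 66 with quantile normalization, 18 with the mean of probe sets, 1 with array weights and 7 with only the groups compared; in lung CD11b+ cells 369 with array weights and 149 without the narrow arrays; in lung CD103+ cells 23 with trend and robust eBayes, 6 with the replicate block, 21 without the narrow arrays and 0 with only the groups compared. In the average they were 269 with quantile normalization and 324 without the narrow arrays, and in the F test 29 with quantile normalization, 11 with median centring, 249 with array weights and 36 without the narrow arrays. For lung CD103+ minus CD11b+ they were 576 with WT arrays alone and 1357 without the narrow arrays, for liver minus lung CD11b+ 109 and for liver minus lung CD103+ 912 with only the groups compared. Against BMDC, array weights gave 4951, 4615 and 3189 for lung CD11b+, lung CD103+ and liver cells, leaving out the narrow arrays gave 2899 and 4023 for the lung populations, and WT arrays alone gave 1681 for lung CD103+ cells. The cause of these shifts was not tested.

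Without 1 array, genes called ran from 20 to 103 in BMDC, 7 to 358 in liver, 7 to 97 in lung CD11b+, 3 to 96 in lung CD103+ cells, 67 to 280 in the average and 5 to 88 in the F test. For the population pairs the ranges were 81 to 1220 (liver minus lung CD11b+), 947 to 2843 (liver minus lung CD103+), 1023 to 2586 (lung CD11b+ minus BMDC) and 1301 to 4528 (liver minus BMDC). Members called ran from 0 to 1 in liver, 1 to 3 in the average, 0 to 2, 1 to 3, 2 to 4 and 2 to 3 in those pairs.

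The following differences changed sign. In BMDC, Trem2 became 0.018 with quantile normalization, 0.38 with array weights and 0.36 without the narrow arrays, Tyrobp 0.022 with quantile normalization, and Hcst -0.030 with array weights and -0.038 without the narrow arrays. In liver, Treml4 became -0.15 and Tyrobp -0.14 with quantile normalization, and Tyrobp -0.016 without the narrow arrays. In the average, Hcst became -0.023, -0.078 and -0.074 with array weights, the replicate block and without the narrow arrays. With WT arrays alone, Hcst became 0.10, 0.062 and -0.037 for lung CD103+ minus lung CD11b+, liver minus lung CD11b+ and liver minus lung CD103+. Leaving out 1 array moved the differences of Treml4 from -0.31 to 0.089, Trem2 from -0.56 to 0.36 and Hcst from -0.038 to 0.37 in BMDC; Tyrobp from -0.066 to 0.16 and Hcst from -0.32 to 0.077 in liver; Treml4 from -0.42 to 1.08 in lung CD11b+ and -0.16 to 0.70 in lung CD103+ cells; Hcst from -0.025 to 0.086 and Treml4 from -0.015 to 0.36 in the average; and Hcst from -0.0057 to 0.19 for liver minus lung CD103+.

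With the replicate number as a block the average difference of Trem1 was 1.95 (adjusted p = 0.0111), that of Trem3 1.19 (0.0155) and that of Trem2 1.38 (0.0155, called); Ccl2 was not called (0.0587). The replicate numbers are not known to pair BRAF with WT samples. Where 1 array was left in a group, it was assumed to vary like the other groups.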
